A study of Mus musculus with 39 samples.

Results

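The complement and lectin pathway genes described here are 33 mouse genes of the classical, lectin and alternative pathways, the terminal pathway, their regulators and their receptors, chosen by name. Of these, 32 had a probe with a RefSeq accession, among 17016 genes with such a probe, and C7 had none. Each gene was read from its brightest probe, and 30 of the 32 genes were well above background throughout at least 1 group of mice, the exceptions being Cd55 and C5ar1.

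The livers came from 39 male C57BL6/J mice, aged 5 to 6 weeks at the start and singly housed, in 8 groups. AggE mice were caged inside the home cage of a trained SJL aggressor for 6 hrs daily over 5 or 10 days, without food, with 3 brief physical contacts per session. Ctrl mice were sham-exposed: no aggressor was present and the bedding was clean, while hours, days and fasting matched those of AggE mice. All mice were put beside an aggressor behind a partition 1 hr before collection. Livers were taken 24 hrs after the 5-day regimen (4 Ctrl, 5 AggE) and the 10-day regimen (4 Ctrl, 5 AggE), 1.5 wks after the 5-day regimen (4 Ctrl, 5 AggE) and 4 wks after the 10-day regimen (6 Ctrl, 6 AggE). Each mouse was hybridized on its own array. Groups follow the source descriptions of the arrays, with which other labels partly disagree: the titles of the 5 AggE arrays and of Ctrl mouse 4 at 1.5 wks carry a 10 in place of a 5, and the description of the AggE arrays at 24 hrs post-5-day gives 1 day of stress. The title of Ctrl mouse 4 at 1.5 wks also begins with HC, where those of the other Ctrl mice begin with C. The titles do not say what HC stands for. Values of these groups, and contrasts that use them, rest on the source descriptions.

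Complement is a plasma protease cascade that marks microbes and damaged cells. The classical pathway starts from C1q bound to antibody, the lectin pathway from mannose-binding lectins, ficolins and collectins bound to sugars, and the alternative pathway from C3 turning over by itself. All of them cleave C3 and then C5, after which C6 to C9 assemble the membrane attack complex. Hepatocytes make most of the plasma components, several of which are acute phase proteins, whereas C1q and properdin come largely from macrophages and other myeloid cells.

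All values are log2 ratios of liver RNA (Cy-5) over a common reference RNA (Cy-3), and a difference is the mean of AggE minus the mean of Ctrl on this scale, with its standard error (SE) from limma. A gene was called when the p-value, adjusted by Benjamini-Hochberg over 24375 probes, was 0.05 or less, and a second rule asked for a 2-fold difference with a p before adjustment (raw p) of at most 0.05. Bulk liver does not tell fewer cells of a type apart from less RNA per cell. Hepatocyte markers were well above background on every array, 8 of 8 measured, while between 15.2% and 70.4% of all spots were. No slide held both Ctrl and AggE mice of a 24 hr point, so that slide and group cannot be told apart there. At 1.5 wks and at 4 wks, 1 slide held 3 Ctrl mice and 1 AggE mouse.

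**Figure D1:**
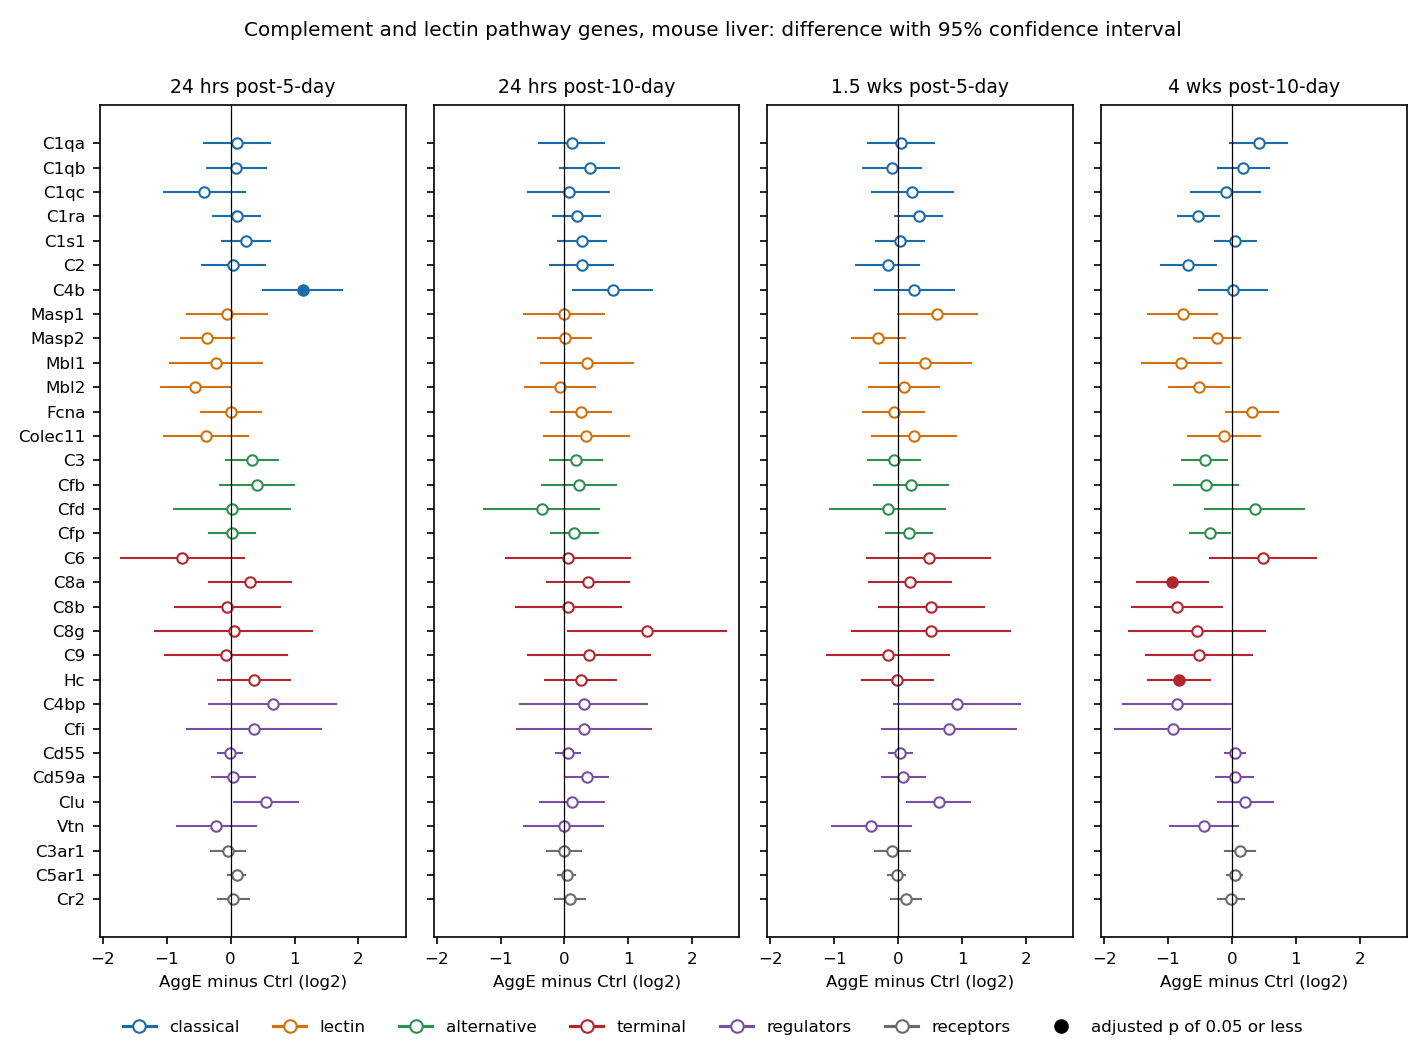
Difference between AggE and Ctrl (log2, x axis) for the 32 complement and lectin pathway genes (y axis, coloured by role) at the 4 time points, with 95% confidence intervals from limma. Filled points have an adjusted p of 0.05 or less: C4b at 24 hrs post-5-day, and C8a and Hc at 4 wks post-10-day.

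At 24 hrs post-5-day stressor, the classical pathway gene C4b was higher in AggE livers than in Ctrl livers. C4b encodes C4, which C1s and MASP-2 cleave to build the C3 convertase. Its log2 ratios were 4.09, 4.47, 4.47 and 3.88 in the 4 Ctrl mice and 5.32, 5.70, 5.08, 5.92 and 4.76 in the 5 AggE mice. All AggE mice lay above all Ctrl mice. The difference was 1.13 (SE 0.303, 2.19-fold, limma adjusted p = 0.0333), and C4b passed both rules.

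C4b was the only one of the 32 genes called at 24 hrs post-5-day, where 3.13% of all genes were called (1.66% higher) and 0.3% passed the 2-fold rule. It was also the only gene of the 32 whose groups did not overlap, against 2.56% of all genes higher in this way. Of the 32 genes, 19 were higher in AggE, against 50.4% of all genes, and 3 had a raw p of at most 0.05, against 16.6%. The p of C4b moved past the limit when any 1 of the Ctrl mice, or AggE mouse 2 or 4, was left out (adjusted p up to 0.119). Without normalization between arrays, the difference was 0.44 (adjusted p = 0.850), and with slide as a random block it was 1.00 (adjusted p = 0.596). C4a is a near-identical neighbour whose transcripts the C4b probe may share. The probe listed for C4a differed by 0.01 (SE 0.0747) and was well above background on 11 of 39 arrays.

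The other classical pathway genes showed no such difference at 24 hrs post-5-day. The differences were 0.09, 0.09 and -0.42 for C1qa, C1qb and C1qc, the chains of C1q. For the proteases C1ra, C1s1 and C2 they were 0.10, 0.24 and 0.04. None of these 6 had a raw p of at most 0.05.

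In the lectin pathway, 0 of 6 genes were higher in AggE at this time, with a median difference of -0.30, whereas the median over all genes was 0.00. With signals processed by Feature Extraction, 4 of the 6 were higher (median 0.74). Mbl2, a mannose-binding lectin, had log2 ratios of 6.79, 7.21, 6.60 and 7.15 in Ctrl and 6.66, 6.51, 6.80, 6.11 and 5.85 in AggE. The groups overlapped, and the difference of -0.55 (SE 0.269) did not pass the test (limma adjusted p = 0.285). It ranged from -1.29 without normalization between arrays to -0.10 with signals processed by Feature Extraction, past the limit in neither. The serine protease Masp2 and the collectin Colec11 differed by -0.37 and -0.39. Masp1 differed by -0.06, and the mean of Fcna was 0.88 in both groups. Under the other processing settings, the median over all 32 genes lay between -0.27 and 0.23, so that its sign was not settled. At this time point 4 of the 5 AggE arrays had fewer spots well above background (15.7% to 22.8%) than every Ctrl array (25.3% to 31.0%), and the part of this in the differences was not tested.

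Alternative pathway genes were 4 of 4 higher, none past the test, and 1 of 4 without normalization between arrays. C3, the protein on which all pathways converge, differed by 0.34, and Cfb, its partner in the alternative convertase, by 0.41. A dimmer C3 probe gave 0.04. Cfd had a mean of 0.68 in Ctrl and 0.70 in AggE, and Cfp 1.29 and 1.31. Cfd was well above background on 2 of 4 Ctrl and 3 of 5 AggE arrays. Among regulators, Clu, which encodes clusterin, a chaperone that keeps the terminal complex from inserting in membranes, had log2 ratios of 4.90, 4.75, 4.44 and 4.60 in Ctrl and 4.87, 5.45, 5.64, 5.50 and 4.71 in AggE. In 3 of the 5 AggE mice Clu was above all Ctrl mice, and the difference was 0.56 (SE 0.246, limma adjusted p = 0.227), or 0.27 with signals processed by Feature Extraction.

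At 24 hrs post-10-day stressor, 0 of the 32 genes were called by limma's adjusted p, against 0.094% of all genes, and 3 had a raw p of at most 0.05, all higher in AggE, against 1.63% of all genes. C4b was again higher in every AggE mouse than in any Ctrl mouse, with log2 ratios of 4.08, 3.67, 4.03 and 4.33 in Ctrl and 5.12, 4.91, 4.54, 4.89 and 4.48 in AggE. Such a separation was seen for no other gene of the 32 and for 1.13% of all genes. The difference was 0.76 (SE 0.303, 1.69-fold), with a limma adjusted p of 1.00, and without normalization between arrays it was 0.22.

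The change of C4b at 24 hrs post-5-day exceeded that at 24 hrs post-10-day by 0.37, with a 95% confidence interval from -0.50 to 1.24, so that a difference between the regimens was not shown. In the test of this difference, 0 of the 32 genes were called or had a raw p of at most 0.05, against 0.0353% of all genes called and 6.32% at that raw p.

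Cd59a, a membrane inhibitor of the terminal complex, had log2 ratios from 1.69 to 1.94 in Ctrl and from 1.92 to 2.25 in AggE at 24 hrs post-10-day. The groups overlapped in 1 mouse each, and the difference was 0.35 (SE 0.166, limma adjusted p = 1.00). Without normalization between arrays it was 0.04.

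C8g encodes the gamma chain of C8, a lipocalin. It passed the 2-fold rule with a difference of 1.29 (SE 0.607, limma adjusted p = 1.00), as did 0.182% of all genes, but 1 spot decided this value. Ctrl mice had log2 ratios of 5.10, 5.77, 0.11 and 5.12 and AggE mice 5.99, 5.26, 4.87, 5.34 and 5.12. Ctrl mouse 3, at 0.11, was not well above background for this probe. Without Ctrl mouse 3 the difference was -0.02.

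In number, 27 of the 32 genes were higher in AggE at 24 hrs post-10-day, against 49.5% of all genes, with a median difference of 0.19. Classical pathway genes were 7 of 7 higher (median 0.27) and terminal pathway genes 6 of 6 (median 0.31). These numbers rested on the processing, and that of the terminal pathway also on Ctrl mouse 3. Without normalization between arrays, 11 of the 32 genes were higher (median -0.15), 4 of 7 in the classical and 1 of 6 in the terminal pathway. Without Ctrl mouse 3, whose C8g spot was low, 26 of the 32 genes were higher, and 4 of 6 in the terminal pathway (median 0.11). Markers of Kupffer cells and macrophages, which make C1q, were also higher in these AggE mice, 10 of 10 measured (median 0.40), with 5 at a raw p of at most 0.05 and 0 called by limma. The mean log2 ratio of that list ran from 0.97 to 1.52 in Ctrl mice and from 1.60 to 1.84 in AggE mice, with 9 or 10 markers well above background. Its part in the differences of the complement genes was not tested.

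**Figure D2:**
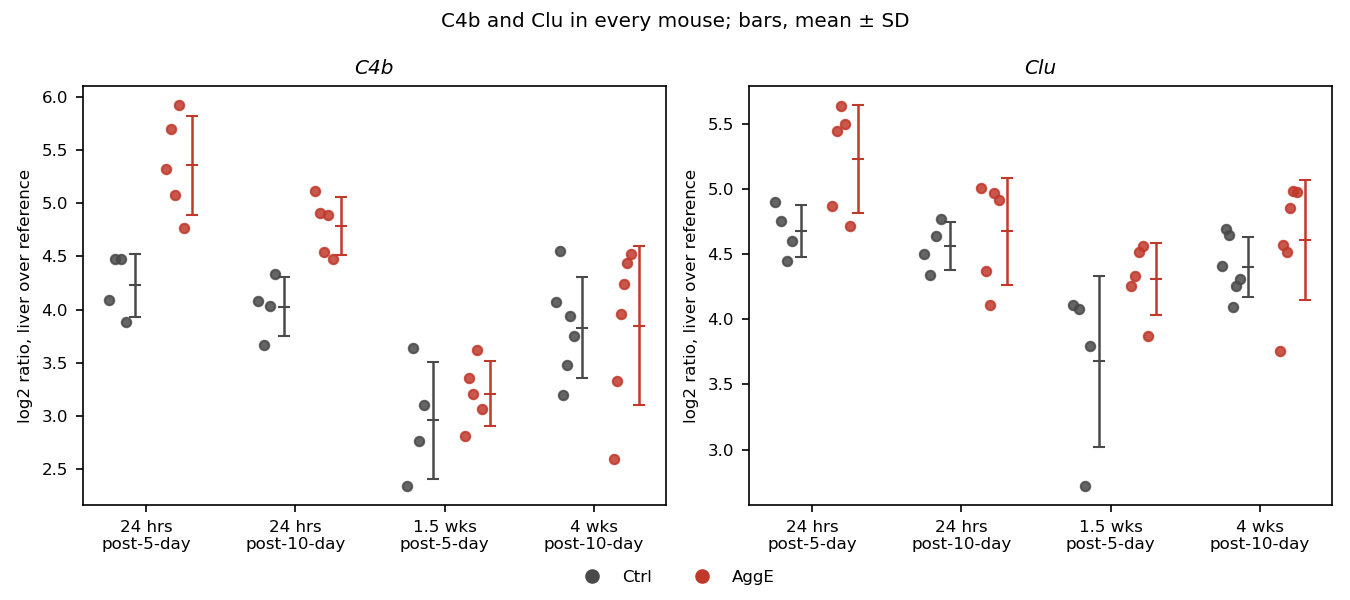
Log2 ratio of liver over reference RNA (y axis) of C4b and Clu in each of the 39 mice by time point (x axis), Ctrl in grey and AggE in red, with the group mean and SD as bars. C4b was higher in all AggE than in all Ctrl mice at both 24 hr points and overlapped at 1.5 and 4 wks.

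At 1.5 wks post-5-day stressor, 0 of the 32 genes were called by limma, against 0% of all genes, and only Clu had a raw p of at most 0.05, as did 2.45% of all genes. In AggE, 21 of the 32 were higher, against 48.8% of all genes. The groups overlapped for all 32, whereas they did not for 0.805% of all genes. On the slide that held both groups, the 1 AggE mouse was below the mean of the 3 Ctrl mice for 16 of the 32 genes. The median difference there was -0.0008. Clu had log2 ratios of 4.11, 4.08, 2.72 and 3.79 in Ctrl and 4.26, 4.33, 4.52, 4.56 and 3.87 in AggE. A single AggE mouse lay within the Ctrl range. The difference was 0.63 (SE 0.246, limma adjusted p = 1.00). Without Ctrl mouse 3, at 2.72, it was 0.31, and with slide as a fixed block 0.11.

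C4b at 1.5 wks had log2 ratios of 2.34, 3.64, 2.76 and 3.10 in Ctrl and 2.81, 3.35, 3.20, 3.62 and 3.06 in AggE. The groups overlapped, and the difference was 0.25 with a 95% confidence interval from -0.37 to 0.87. The change at 24 hrs post-5-day was larger than this by 0.88 (SE 0.429), with a limma adjusted p of 0.649. This was 1 of 32 genes with a raw p of at most 0.05 in that difference, and 0 were called, against 7.55% and 0.094% of all genes.

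Levels at 1.5 wks stood apart in both groups. In Ctrl mice 19 of the 32 genes had their lowest group mean at this time and 6 their highest, against 28.6% and 33.6% of all genes. In AggE mice they were 18 and 7, against 28.4% and 29.4%. The median log2 ratio over the 32 genes ran from 1.36 to 3.26 over the 9 arrays of this time point and from 2.42 to 4.13 over the other arrays. C4bp, the fluid-phase inhibitor of the classical convertase, had a mean of 3.76 in Ctrl at 1.5 wks against 6.02 to 6.55 in the other Ctrl groups. Cfi, the protease that inactivates C3b and C4b, had 4.54 against 6.75 to 7.03. Vtn, or vitronectin, went the other way, with 7.30 against 5.31 to 6.05. Of all spots, 15.2% to 24.5% were well above background on the 7 arrays of this time point scanned on the first day, and 40.9% and 47.7% on the other 2. The Ctrl mice of 1.5 wks shared no slide with a 24 hr group. Ctrl mouse 4 of 1.5 wks, whose title begins with HC, shared a slide with Ctrl mice of 4 wks. On that slide its median over the 32 genes was 2.27, against 3.37 to 3.62 in 3 Ctrl mice of 4 wks. On another slide, AggE mice 1, 3 and 4 of 1.5 wks had 1.94, 2.38 and 2.58, against 3.80 in AggE mouse 5 of 24 hrs post-5-day, and on a further one AggE mouse 2 had 3.26, against 3.91 in AggE mouse 6 of 4 wks. On each of these slides with AggE mice, the other time point had 1 mouse. AggE mice 1, 2 and 3 of 4 wks, on other slides, had 2.81, 2.42 and 2.91, below the 3.26 of AggE mouse 2 of 1.5 wks. The part of slide in these levels was not tested. A pair of other lists was low as well: the mean log2 ratio of Kupffer cell and macrophage markers ran from 0.27 to 1.08 in Ctrl mice at 1.5 wks and from 0.97 to 1.81 in the other Ctrl mice, and that of the 28 other complement genes from 0.19 to 0.57 and from 0.75 to 1.07. Hepatocyte markers were not, at 5.63 to 6.39 against 5.59 to 6.53. White fat markers had 1.12 to 1.27 against 1.06 to 1.51, and stellate cell markers -1.32 to -0.87 against -1.53 to -1.06. The part of detection and these lists in the levels was not tested.

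At 4 wks post-10-day stressor, a pair of terminal pathway genes was lower in AggE livers. Hc encodes C5, whose cleavage starts the terminal complex and releases the anaphylatoxin C5a. Its log2 ratio had a lowest, median and highest value of 6.50, 7.26 and 7.55 in the 6 Ctrl mice and 5.61, 6.25 and 7.19 in the 6 AggE mice. AggE mice 1, 2 and 3, at 5.90, 5.61 and 5.91, were below every Ctrl mouse, and the other 3 overlapped with Ctrl. The difference was -0.82 (SE 0.238, 1.77-fold lower, limma adjusted p = 0.0453).

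C8a encodes the alpha chain of C8, which crosses the membrane in the terminal complex. The lowest, median and highest log2 ratios were 4.94, 5.77 and 6.10 in Ctrl and 3.57, 4.77 and 5.48 in AggE. The same 3 AggE mice, at 4.09, 3.57 and 4.27, were below all Ctrl mice, whereas mice 4, 5 and 6 reached 5.44, 5.28 and 5.48. The difference was -0.93 (SE 0.272, 1.91-fold lower, limma adjusted p = 0.0474).

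These were 2 of 32 genes called, against 4.21% of all genes (2.82% lower), and no gene of the 32 passed the 2-fold rule, against 0.3%. On the slide that held both groups, AggE mouse 1 was below the 3 Ctrl mice for Hc (5.90 against 6.97 to 7.53) and for C8a (4.09 against 5.73 to 6.10). Both calls rested on the processing. Without background correction the differences were -0.32 and -0.26 (adjusted p = 0.682 and 0.577), and from the Cy-5 channel alone -0.53 and -0.19 (adjusted p = 0.125 and 0.991). With slide as a random block they were -0.79 and -1.07 (adjusted p = 0.207 and 0.127), and as a fixed block -0.75 and -1.48 (adjusted p = 0.344 and 0.0585). Both genes missed the limit when AggE mouse 1, 2 or 3 or Ctrl mouse 3, 4, 5 or 6 was left out, and Hc also without AggE mouse 5 or Ctrl mouse 1 (adjusted p up to 0.162).

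**Figure D3:**
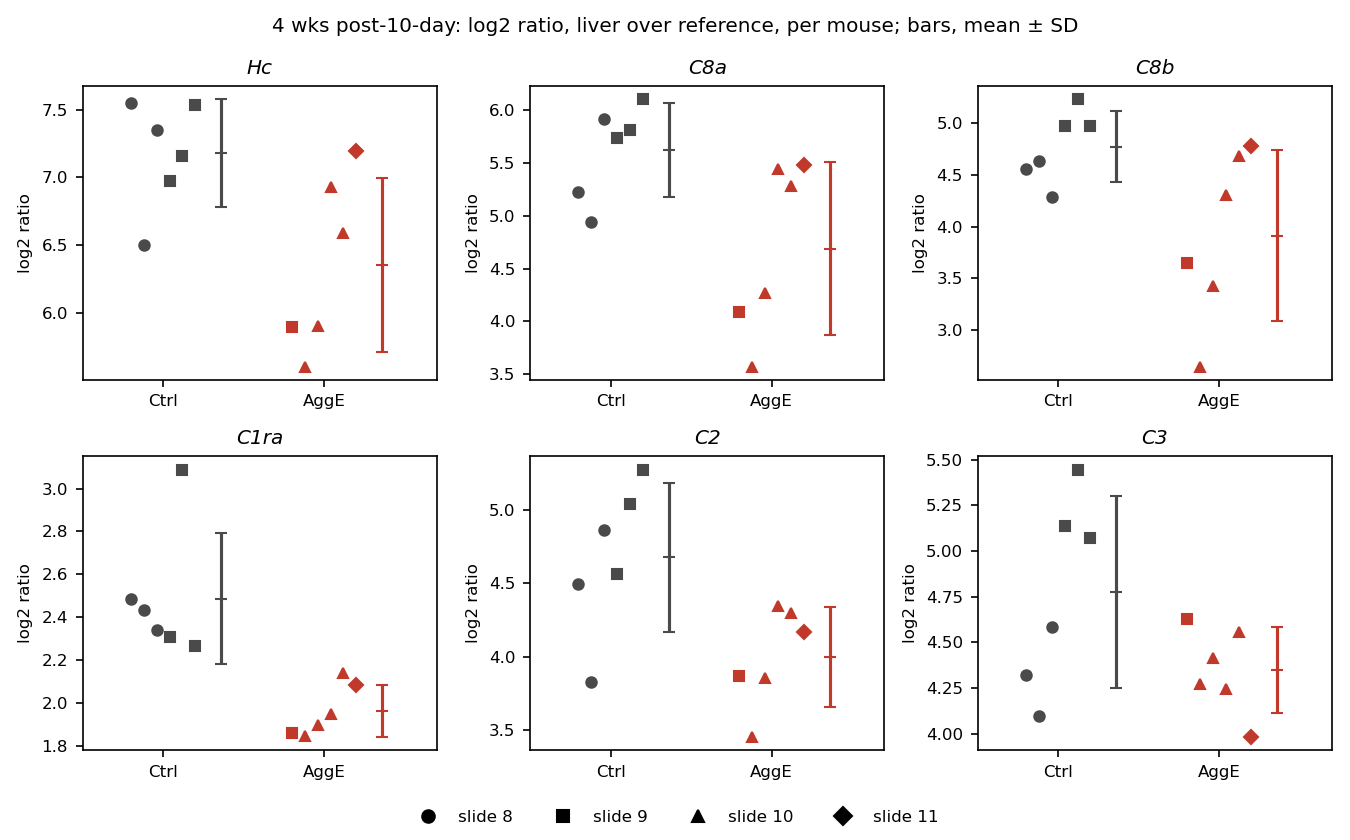
Log2 ratio of liver over reference RNA (y axis) of 6 complement genes in the 6 Ctrl (grey) and 6 AggE (red) mice at 4 wks post-10-day, with symbols for the slide and bars for the mean and SD. AggE mice split into lower and higher values for Hc, C8a and C8b, and the groups did not overlap for C1ra.

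The other genes of the terminal pathway had larger SEs. C8b, the beta chain of C8, had a lowest, median and highest log2 ratio of 4.29, 4.80 and 5.23 in Ctrl and 2.65, 3.98 and 4.78 in AggE. The difference of -0.86 (SE 0.347) missed the limit with a limma adjusted p of 0.146, and ranged from -1.73 without normalization between arrays to -0.08 from the Cy-5 channel alone. C8g and C9 differed by -0.54 and -0.52, and C6 by 0.49, none with a raw p of at most 0.05.

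C1ra, a protease of the C1 complex, was the only gene of the 32 whose groups did not overlap at 4 wks, as for 1.11% of all genes in the lower direction. Ctrl mice had 2.27, 2.39 and 3.09 as lowest, median and highest log2 ratio, and AggE mice 1.84, 1.92 and 2.14. The difference was -0.52 (SE 0.155) and just missed the limit (limma adjusted p = 0.0514). Its near copy C1rb had no RefSeq probe, and signal from it in the C1ra probe was not tested.

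C2, the protease of the classical convertase, had 3.83, 4.71 and 5.27 in Ctrl and 3.45, 4.02 and 4.35 in AggE. The difference was -0.68 (SE 0.208, limma adjusted p = 0.0585), while a dimmer C2 probe gave -0.29. In the lectin pathway, Masp1 differed by -0.77, Mbl1 by -0.79 and Mbl2 by -0.52, with adjusted p of 0.0861, 0.124 and 0.195 in limma. The dimmer probe of Masp1 gave 0.04. These values moved both ways under other settings. Without normalization between arrays they were -1.51 for Masp1, -1.59 for Mbl1, -0.96 for Mbl2 and -1.06 for C2, of which C2 passed the limit (limma adjusted p = 0.0294). C2 also passed among probes well above background (limma adjusted p = 0.0391), and Masp1 and Mbl1 with the replicate number as a block (limma adjusted p = 0.0231 and 0.0410). At the other end, Masp1 was -0.24 from the Cy-5 channel alone, Mbl1 -0.12 and C2 -0.19 from the series table, and Mbl2 -0.06 with signals processed by Feature Extraction. C3 and Cfp, or properdin, differed by -0.43 and -0.35, and a dimmer C3 probe gave -0.24. Without Ctrl mouse 6, Cfp differed by -0.20.

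The regulators C4bp and Cfi differed by -0.85 and -0.93 at 4 wks, neither past the adjusted limit (limma adjusted p = 0.239 and 0.228). From the Cy-5 channel alone the values were -0.06 and 0.07, and from the series table -0.27 and 0.01, so that the direction of Cfi turned under both. Without normalization between arrays they were -1.66 and -1.90, neither past the limit (limma adjusted p = 0.116 and 0.108). For C4bp, AggE mice 1 to 6 had log2 ratios of 5.20, 4.46, 5.12, 6.29, 6.48 and 6.62, against 6.14 to 6.78 in Ctrl. For Cfi they had 5.16, 4.75, 5.48, 6.76, 6.96 and 7.34, against 6.31 to 7.28. As for Hc, C8a and C8b, mice 1, 2 and 3 were below every Ctrl mouse and the others overlapped with Ctrl.

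Together, 12 of the 32 genes had a raw p of at most 0.05 and a lower level in AggE at 4 wks, and 0 a higher one, against 12.8% of all genes lower and 9.8% higher. In AggE, 12 of the 32 genes were higher, against 52.8% of all genes. The median difference was -0.29, whereas it was 0.01 over all genes. It was negative under all 15 other settings but ranged from -0.68 without normalization between arrays to -0.01 for the Cy-5 channel alone. On the slide with both groups, AggE mouse 1 was below all 3 Ctrl mice for 23 of the 32 genes, against 30% of all genes. This is 1 mouse, and the median log2 ratio over the 32 genes was 2.81 in it, 2.42 and 2.91 in AggE mice 2 and 3, and 3.82 to 3.92 in AggE mice 4, 5 and 6.

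Hepatocyte markers were also lower in AggE at 4 wks, 8 of 8 measured, with a median of -0.31, 2 at a raw p of at most 0.05 and 0 called by limma. Their mean log2 ratio ran from 5.77 to 6.51 in Ctrl mice and from 5.23 to 6.21 in AggE mice, with 8 of 8 well above background. The part of this shift in the complement values was not tested. Kupffer cell and macrophage markers were lower for 6 of 10 measured (median -0.17), with 2 lower and 1 higher at a raw p of at most 0.05. Among genes made largely by myeloid cells, Cfp differed by -0.35, as given above. The C1q chains differed by 0.42, 0.18 and -0.10 for C1qa, C1qb and C1qc, and Clu by 0.21, none with a raw p of at most 0.05. C4b, at 3.20, 3.84 and 4.55 in Ctrl and 2.59, 4.10 and 4.52 in AggE as lowest, median and highest, differed by 0.02 with a 95% confidence interval from -0.51 to 0.55.

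**Figure D4:**
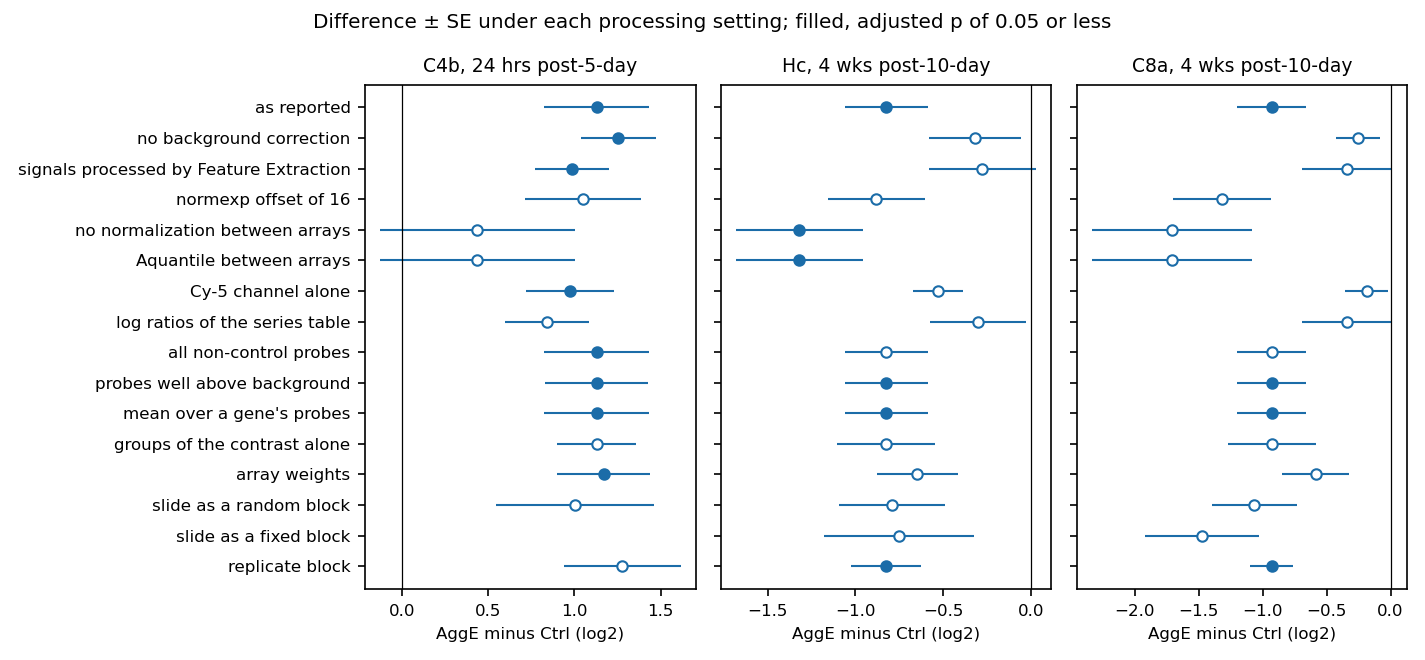
Difference between AggE and Ctrl (log2, x axis) with its SE for C4b at 24 hrs post-5-day and for Hc and C8a at 4 wks post-10-day, under the reported setting and each alternative (y axis). Filled points have an adjusted p of 0.05 or less; C4b stayed above 0 and Hc and C8a below 0 in all of them, with calls in only some.

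In the test of the change at 24 hrs post-10-day minus the change at 4 wks post-10-day, 0 of the 32 genes were called by limma, against 0.0823% of all genes. Of the 32, 8 had a raw p of at most 0.05, all with a higher value at 24 hrs, against 5.56% of all genes. Those past 2-fold were C8a (1.30, SE 0.417, adjusted p = 0.406), C8g (1.83, SE 0.801), Hc (1.08, SE 0.364, adjusted p = 0.414) and Mbl1 (1.15, SE 0.465, adjusted p = 0.491), 4 of 32 against 0.453% of all genes. The value of C8g again contained the low spot of Ctrl mouse 3, without which it was 0.53. From the log ratios of the series table, C8a was -0.14, a turned direction, Hc 0.40 and Mbl1 0.03. C1ra, C2, C3 and Cfp made up the rest, with differences from 0.50 to 0.95. As reported, for no single gene was the change at 4 wks shown to differ from that at 24 hrs after adjustment, whereas from the Cy-5 channel alone Hc passed (1.38, limma adjusted p = 0.0015).

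Promoter sequences are shown for the genes that were lower at 4 wks by the adjusted test, Hc and C8a, and for C1ra, whose groups separated. They run from 250 bases before to 50 bases after the start site, on the strand of the gene, and were taken from RefSeq on GRCm38.p6. Capitals mark matches, on either strand, to a STAT site (TTCNNNGAA), a C/EBP site (TTGCNNAA) or an NF-kB site (GGGANTTCC), motifs of factors known for acute phase genes.
Hc, chr2:35061363-35061662, minus strand: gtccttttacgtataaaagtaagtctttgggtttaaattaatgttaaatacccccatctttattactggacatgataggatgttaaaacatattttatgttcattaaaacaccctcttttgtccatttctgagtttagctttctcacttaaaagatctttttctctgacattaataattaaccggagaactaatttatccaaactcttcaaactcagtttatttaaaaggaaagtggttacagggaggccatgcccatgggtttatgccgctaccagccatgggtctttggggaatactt
C8a, chr4:104876349-104876648, minus strand: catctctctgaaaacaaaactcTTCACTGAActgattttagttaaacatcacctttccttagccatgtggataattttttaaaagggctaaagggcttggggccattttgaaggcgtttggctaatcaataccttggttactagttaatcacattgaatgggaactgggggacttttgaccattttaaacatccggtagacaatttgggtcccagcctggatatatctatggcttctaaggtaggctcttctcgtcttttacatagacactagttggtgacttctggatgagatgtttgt
C1ra, chr6:124512371-124512670, plus strand: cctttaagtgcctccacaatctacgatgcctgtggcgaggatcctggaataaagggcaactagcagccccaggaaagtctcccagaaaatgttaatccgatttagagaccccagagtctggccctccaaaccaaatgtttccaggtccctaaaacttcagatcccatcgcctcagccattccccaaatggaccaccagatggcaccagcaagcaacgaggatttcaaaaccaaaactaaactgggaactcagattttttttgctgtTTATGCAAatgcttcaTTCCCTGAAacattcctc

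The Hc window held none of the motifs, the C8a window 1 STAT match and the C1ra window 1 STAT and 1 C/EBP match, both after the start site. Of the 26 listed genes with a promoter in the table, 6 held a STAT match (23.1%), 4 a C/EBP match (15.4%) and 0 an NF-kB match, against 8.30%, 10.8% and 1.68% of the 32851 promoters of the table. The STAT matches were in C1ra, C7, C8a, Colec11, Masp2 and Vtn, and the C/EBP matches in C1ra, C1s1, C3 and C9. These are matches of letters and were not tested. The shares of the listed genes count genes, with a match in any promoter of the gene, whereas those of the table count promoters. C1s1 and C8g had more than 1 promoter.

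The receptors were under the background at the 24 hr points. C5ar1, for C5a, was well above background on 1 Ctrl array and no AggE array at 4 wks and on none at the other times. C3ar1, for C3a, and Cr2, a B cell receptor for C3 fragments, were not well above background on any array at either 24 hr point but were on all arrays at 4 wks, where they differed by 0.13 and -0.01. Cd55, a membrane protein that decays convertases, was above it on 1 array at those times. No fold is given for these 4 genes at the 24 hr points. They are nonetheless counted in the numbers of higher genes given above: of those above background on no array, 2 of 4 were higher at 24 hrs post-5-day and 2 of 3 at 24 hrs post-10-day. B cell markers were also largely under it, with 0 to 2 of 7 well above background on the 24 hr arrays and 3 to 7 at 4 wks. All 24 hr arrays were scanned on the first day, with 15.7% to 44.3% of all spots well above background. All arrays of 4 wks were scanned on the second day, with 42.0% to 70.4%. The part of scan day and detection in these counts was not tested.

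Other complement genes were listed beside the 33. Of 31 listed, 28 were measured, and at 24 hrs post-5-day 2 were called higher and 0 lower, where 1.66% of all genes were called higher. Apcs, serum amyloid P, a pentraxin that binds C1q and C4bp and an acute phase protein in mice, differed by 2.27 (SE 0.252, limma adjusted p = 1.10e-06) and, at 24 hrs post-10-day, by 1.86 (limma adjusted p = 6.25e-05). At 1.5 and 4 wks Apcs differed by 0.11 and 0.12. The second gene was Itgax, a complement receptor subunit, which was well above background on 7 of 39 arrays. Of the 28 genes, 1 was called at 24 hrs post-10-day, against 0.094% of all genes, and 0 at 1.5 wks by limma, against 0%, with 1 at a raw p of at most 0.05, against 2.45%. At 4 wks 2 were called, against 4.21% of all genes. The latter were Crp, C-reactive protein, higher by 0.67 (SE 0.182, limma adjusted p = 0.0351) and Ptx3, a pentraxin, which was lower but well above background on 1 of 39 arrays.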

How the data were processed

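Liver RNA of 39 mice was hybridized with a common reference of pooled mouse RNA on 2-colour Agilent arrays, liver in Cy-5 and reference in Cy-3. The authors deposited, for each array, spot intensities and processed signal intensities from Agilent Feature Extraction (version 11.5.1.1 in the file headers and the submitters' processing notes, 10.7 in the methods), and a table of log10 ratios of the processed signals.

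From the median spot and background intensities, the background was corrected with normexp (offset 50), ratios were normalized by loess within arrays, with control and outlier spots at weight 0 and outlier spots left out after it, and by quantiles between arrays (limma 3.58.1, R 4.3.3). Precision is limited by the number of arrays. limma fitted 1 mean for each of 8 groups to 24375 RefSeq probes, with AggE minus Ctrl at 4 time points and 3 contrasts of these differences, two-sided and adjusted by Benjamini-Hochberg. Shares over all genes used the brightest probe of each of 17016 genes. No source states that the mice of a group came from separate litters, so p-values measure the spread between these mice. The script was tested on simulated data.

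The genes described are the 33 listed ones, in full where called by either rule, and otherwise by counts or with their role. The members and lists were chosen with earlier results of these data known. Marker lists for neutrophils, white fat, stellate cells and exocrine pancreas showed 0 to 1 called gene in each contrast of AggE minus Ctrl. Alternatives were the background correction, the normalization, the probe filter, the samples in the fit, array weights, blocks of slide or replicate number, and leaving out each mouse.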

Additional observations from a re-analysis of the deposited data

Results flagged for a closer look

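In 18 of the 256 combinations of gene and group (7.03%), 1 mouse stood farther from its group than Dixon's 95% limit allows, and chance alone gives about 1 in 20. Chains of C1q account for 5 of them, each a high value. AggE mouse 5 at 24 hrs post-5-day had a C1qa log2 ratio of 1.62, above the nearest mouse of its group at 0.61. AggE mouse 5 at 24 hrs post-10-day had a C1qa log2 ratio of 1.64, above the nearest mouse of its group at 0.78. AggE mouse 2 at 1.5 wks post-5-day had a C1qa log2 ratio of 0.55, above the nearest mouse of its group at 0.10. Ctrl mouse 2 at 4 wks post-10-day had a C1qa log2 ratio of 1.34, above the nearest mouse of its group at 0.71. AggE mouse 2 at 1.5 wks post-5-day had a C1qc log2 ratio of 2.42, above the nearest mouse of its group at 0.97. All but the value of Ctrl mouse 2 came from AggE mice that were each the only one of their group on their slide. AggE mouse 2 at 1.5 wks was also the only one of its group scanned on the second day. Of its spots 47.7% were well above background, against 15.2% to 22.6% in the rest of its group. The C3, C8a and Cd55 values of AggE mouse 5 given below came from the same arrays. The part of slide and detection in these values was not tested.

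Components of the cascade follow. Ctrl mouse 5 at 4 wks post-10-day had a C1ra log2 ratio of 3.09, above the nearest mouse of its group at 2.49. AggE mouse 1 at 24 hrs post-10-day had a C2 log2 ratio of 5.16, above the nearest mouse of its group at 4.22. AggE mouse 5 at 24 hrs post-5-day had a C3 log2 ratio of 4.37, below the nearest mouse of its group at 4.75. AggE mouse 5 at 24 hrs post-10-day had a C8a log2 ratio of 5.23, below the nearest mouse of its group at 5.92. Ctrl mouse 3 at 24 hrs post-10-day had a C8g log2 ratio of 0.11 on a spot not well above background, below the nearest mouse of its group at 5.10. Ctrl mouse 6 at 4 wks post-10-day had a C8g log2 ratio of 6.43, above the nearest mouse of its group at 6.04. Ctrl mouse 2 at 24 hrs post-10-day had an Hc log2 ratio of 7.35, above the nearest mouse of its group at 6.45.

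The rest were Cfd, the regulators and the receptors. AggE mouse 5 at 4 wks post-10-day had a Cfd log2 ratio of 3.00, above the nearest mouse of its group at 1.34. Ctrl mouse 2 at 4 wks post-10-day had a Cfi log2 ratio of 6.31, below the nearest mouse of its group at 6.98. AggE mouse 5 at 24 hrs post-10-day had a Cd55 log2 ratio of 0.52 on a spot not well above background, above the nearest mouse of its group at 0.06. Ctrl mouse 4 at 24 hrs post-5-day had a C3ar1 log2 ratio of -0.24 on a spot not well above background, below the nearest mouse of its group at -0.13. AggE mouse 1 at 1.5 wks post-5-day had a Cr2 log2 ratio of 0.48 on a spot not well above background, above the nearest mouse of its group at 0.11. AggE mouse 1 at 4 wks post-10-day had a Cr2 log2 ratio of 0.77, above the nearest mouse of its group at 0.33.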

How the results depend on the processing

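C4b, Hc and C8a kept the direction of their called differences under every alternative. At 24 hrs post-5-day the count of called genes, 1 as reported, was 3 with signals processed by Feature Extraction (C4b, C1qb and Colec11), 2 with the Cy-5 channel alone (C4b and Hc) and 0 with an offset of 16, without normalization between arrays, with Aquantile (which leaves the ratios as they are), with the log ratios of the series table, with the groups of the contrast alone and with slide as a random block. It was 0 to 1 when each mouse was left out in turn. Over all probes at this time, 21 were called without normalization between arrays or with Aquantile, and 146 with the log ratios of the series table. The number was 435 with signals processed by Feature Extraction, 1112 with the Cy-5 channel alone and 1335 with an offset of 16. At 24 hrs post-10-day the count of called genes was 1 with the Cy-5 channel alone (Hc) and 0 under every other setting. In that channel 30 probes were called at this time. The difference between 24 hrs and 4 wks post-10-day likewise had 1 called gene with the Cy-5 channel alone (Hc).

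At 4 wks the count, 2 as reported, was 0 without background correction, with processed signals, with an offset of 16, with the Cy-5 channel alone, with the series table, with all non-control probes, with the groups of the contrast alone and with slide as a random or a fixed block. It was 1 with array weights (C1ra), and 4 without normalization between arrays or with Aquantile (C1ra, C2, C3 and Hc). With probes well above background it was 4 (C1ra, C2, C8a and Hc). When each mouse was left out it was 0 to 6, with 6 without Ctrl mouse 2. Over all 24375 probes at 4 wks, 2413 were called without normalization between arrays or with Aquantile. The number was 305 with an offset of 16, 239 without background correction and 54 with processed signals. Only 7 probes were called with the Cy-5 channel alone, and 4 with the log ratios of the series table. At 1.5 wks the count of called genes was 0 in all 25 alternatives. Slide as a fixed block could not be fitted at the 24 hr points. The cause of these shifts was not tested.

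With the replicate number as a block, 0 genes were called at 24 hrs post-5-day and 5 at 4 wks (C8a, C8b, Hc, Masp1 and Mbl1). The numbers did not pair the mice: deviations of same-numbered mice correlated between -0.07 and 0.13 at 24 hrs post-5-day and between -0.45 and 0.20 at 4 wks. Of the values for single genes and medians, 874 kept their direction and side of the limit or moved by less than the spread, 51 missed the limit, 18 newly passed it and 55 moved.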
